A study of Mus musculus with 6 samples.

Results

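The aminoacyl-tRNA synthetases and a set of known target genes of the transcription factor ATF4 were examined in Th9 cultures whose CD4+ T cells were WT or lacked Cul5. The 43 genes were a list given by name, of 22547 annotated genes with at least 1 read, and comprised 20 cytosolic synthetases, 9 mitochondrial synthetases, 2 scaffold proteins of the multisynthetase complex, ATF4 itself with 4 stress regulators, and 7 enzymes of amino acid and one-carbon metabolism. All 43 passed the filter on low counts, as did 12925 genes in all, and all 43 were in the gene-level table of the authors.

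Naïve CD4+ T cells were isolated from C57BL/6 mice that were either WT or Cul5fl/flCD4-Cre (Cul5 cKO). The source is labelled spleen, and the study's methods also name lymph nodes. A figure legend of the study gives the age of the mice as 8 to 10 weeks. By the study's methods, WT controls were Cul5fl/fl littermates without CD4-Cre, so the genotypes differ in Cre as well as in Cul5. Both genotypes were cultured alike, on antibodies to CD3 (2 µg/ml) and CD28 (1 µg/ml) in a Th9 polarising medium of IL-4 (20 ng/ml), TGF-β (2.5 ng/ml) and an antibody that blocks IFN-γ (10 µg/ml). After 48 h their poly-A RNA was sequenced, with 3 samples of each genotype. Cul5 encodes the cullin scaffold of a family of E3 ubiquitin ligases, and CD4-Cre deletes a floxed gene in developing T cells, so that CD8 as well as CD4 T cells of these mice lose it. The labels do not say whether the samples of a genotype came from separate mice or cultures, and p-values here measure only the spread between these samples.

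Aminoacyl-tRNA synthetases join amino acids to their tRNAs, and thereby supply the ribosome. Short DNA elements that ATF4 binds together with C/EBP proteins lie near the start sites of many synthetase and amino acid enzyme genes. ATF4 protein is made when the initiation factor eIF2α is phosphorylated, for example by GCN2 when amino acids are scarce or by PERK when proteins misfold in the endoplasmic reticulum, and mTORC1 also raises it in activated T cells, which need amino acids for growth.

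Libraries held 23111689 to 23454552 counts except WT replicate 3, which held 3944803. Levels are given as CPM, the counts scaled to a common library size after TMM, and a count of 3 equals 0.759 CPM in that sample and 0.128 to 0.133 CPM in the others, and such limits cover counting error only. Over all genes tested, deviations of replicate 1 from its group mean correlated at 0.37 between the genotypes. Those of WT replicate 1 correlated at −0.27 and −0.19 with those of Cul5 cKO replicates 2 and 3. Among the 43 genes, replicate 1 was the lowest of its genotype in both genotypes in 18. Values from replicates 2 and 3 alone are therefore given beside results whose call they change. They still include WT replicate 3, the smallest library. Cul5 itself was at 64.4, 69.3 and 65.0 CPM in WT and at 10.6, 14.2 and 13.1 CPM in Cul5 cKO cells, as the labels imply. Summed markers of CD4 T cells were 1778 to 1972 CPM in WT and 1609 to 1750 CPM in Cul5 cKO samples. The 5 B cell markers summed to 15.1 to 19.2 CPM in WT, whereas Cul5 cKO replicate 1 had 6.47, replicate 2 had 9.86 and replicate 3 had 48.0 CPM. Myeloid markers (6 genes) summed to 6.15 to 10.6 CPM in WT and 5.30 to 14.4 CPM in Cul5 cKO samples, CD8 markers (2 genes) to 5.76 to 6.53 and 4.30 to 11.7 CPM, NK markers (4 genes, with Ncr1 and Klra8 at 0 in every sample) to 4.10 to 9.60 and 5.82 to 13.0 CPM, and erythroid markers (4 genes) to 0 to 0.811 and 0.978 to 2.06 CPM. In bulk RNA, fewer cells of a type and less RNA per cell cannot be told apart.

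The C/EBP-ATF response element was searched as TGATGNAA on both strands, from 250 bases before to 50 bases after each start, in RefSeq promoter windows (GRCm38.p6). Windows were matched for 35 of the 43 genes, and those for Cars, Hars, Lars, Nars, Rars, Vars, Wars and Pars2 were not matched. The letters occurred in 8 of the 35, or 22.9%, against 3.97% of all 32851 windows and 4.51% of the 27025 genes with a window. They were present in 5 of 13 cytosolic synthetases, in 2 of 5 ATF4 and stress regulators and in 1 of 7 metabolic enzymes, and in 0 of 8 mitochondrial synthetases and 0 of 2 scaffold genes. Sites are given as 30 bases on the strand that reads the element 5′ to 3′, with the element in capitals, because these are the members for which ATF4 has a candidate binding sequence next to the start.
Asns (chr6:7693214-7693243, minus strand): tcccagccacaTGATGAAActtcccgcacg
Trib3 (chr2:152344028-152344057, plus strand): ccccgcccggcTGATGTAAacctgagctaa
Chac1 (chr2:119351038-119351067, minus strand): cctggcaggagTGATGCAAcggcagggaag
Tars (chr15:11399655-11399684, plus strand): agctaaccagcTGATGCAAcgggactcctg
Gars (chr6:55037960-55037989, minus strand): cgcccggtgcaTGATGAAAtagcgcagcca
Yars (chr4:129189895-129189924, plus strand): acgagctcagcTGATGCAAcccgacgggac
Iars (chr13:49682126-49682155, minus strand): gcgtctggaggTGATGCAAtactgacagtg
Aars (chr8:111033840-111033869, minus strand): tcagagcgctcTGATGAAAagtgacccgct
The element read in the direction of transcription in Asns and Yars and in the opposite direction in the others printed here. Its first base, counted along the gene, lay 23 bases before the start in Asns, 30 before in Gars, 15 before in Tars and 193 before in Chac1, and at positions 4, 8, 10 and 15 after it in Yars, Iars, Aars and Trib3. A match of letters is a description of the sequence and not a bound site.

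Across the list, which was chosen with earlier results of these data known, the values leaned higher in Cul5 cKO cells. Because of that choice, the counts below describe the list and do not test it. The log2 fold change was above 0 for 42 of 43 genes, compared with 48.8% of all genes tested. It was above 0 for 40 without TMM scaling, against 41.6% of all genes, and for 37 in the authors' log2 CPM, against 50.1%. In limma on log2(TPM + 1) it was above 0 for 35, against 41.9%. The median in edgeR with TMM was 0.19, compared with −0.01 over all genes tested. Only Sesn2 and Ass1 passed an adjusted p of 0.05 in the quasi-likelihood test of edgeR (Benjamini-Hochberg adjustment), both higher, where 1.03% of all genes tested were called, 0.611% higher and 0.418% lower. At an unadjusted p under 0.05 stood 18 members, all higher, against 10.9% of all genes higher and 10.4% lower (21.3% in all). All 3 Cul5 cKO samples lay above all 3 WT samples in 21 members and below them in 0, against 14% and 13.5% of all genes tested (27.5% in either direction). Other fits of the same counts called more members, all higher. DESeq2 called 5, against 2.79% of all genes tested, and edgeR from replicates 2 and 3 alone called 8, against 4.38%. At the same adjusted threshold limma called 0 members on log2(TPM + 1) or on the authors' values, against 0.116% and 0.214% of all genes higher. At an unadjusted p under 0.05 limma had 8 and 12 members in these fits. The share of all genes at that threshold was not computed for limma.

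**Figure D1:**
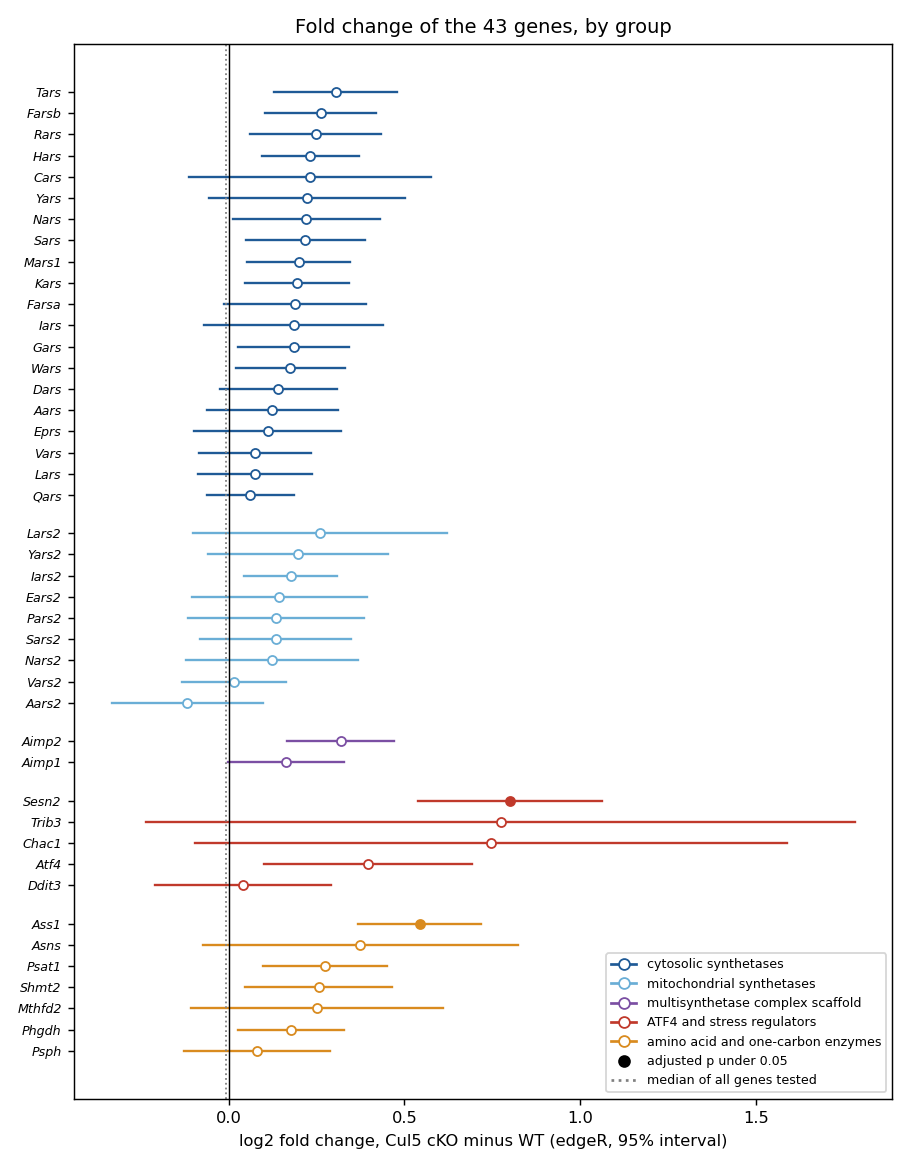
Log2 fold change (Cul5 cKO minus WT, horizontal axis) of the 43 genes with 95% intervals from edgeR, in 5 groups by colour; filled points passed an adjusted p of 0.05 and the dotted line is the median of all genes tested. On this count scale all points but that of Aars2 lie above 0, the intervals of Trib3 and Chac1 are the widest, and only Sesn2 and Ass1 are filled.

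Among the regulators, Sesn2 (ENSMUSG00000028893, chromosome 4, 132492032 to 132510501 in GRCm38, minus strand) rose. It encodes sestrin 2, a leucine-binding inhibitor of mTORC1. Its level was 15.9, 12.9 and 15.4 CPM in the WT samples and 25.2, 24.4 and 27.0 CPM in the Cul5 cKO samples. Each Cul5 cKO sample was above the highest WT sample, and the range within either genotype was smaller than the gap between them. The log2 fold change was 0.80 ± 0.11 (SE, n = 3 per genotype; adjusted p = 0.0255 in the quasi-likelihood test of edgeR, Benjamini-Hochberg adjusted), or 1.74-fold with a 95% interval of 1.45 to 2.09. From replicates 2 and 3 alone it was 0.91 (edgeR, adjusted p = 0.0190). The call was lost in edgeR without WT replicate 2 (adjusted p = 0.102), WT replicate 3 (0.111), Cul5 cKO replicate 1 (0.0515), Cul5 cKO replicate 2 (0.0743) or Cul5 cKO replicate 3 (0.141), with a log2 fold change between 0.70 and 0.84 in those 5 fits, and was kept without WT replicate 1 (0.0325).

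Atf4 (ENSMUSG00000042406, chromosome 15, 80255184 to 80257541, plus strand) encodes the factor after which the program is named, and is itself controlled mainly at translation, which mRNA levels do not show. It was at 226, 268 and 253 CPM in WT and at 270, 337 and 375 CPM in Cul5 cKO samples. The groups did not overlap, but the lowest Cul5 cKO sample, replicate 1, was nearly level with WT replicate 2. Its log2 fold change of 0.40 ± 0.13 missed the threshold in edgeR's quasi-likelihood test (adjusted p = 0.147), passed it in DESeq2 (adjusted p = 0.0467) and from replicates 2 and 3 alone in edgeR (0.0293). With 1 library left out at a time, its adjusted p in edgeR ranged from 0.0698 to 0.407.

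Trib3, a pseudokinase that ATF4 induces and that dampens ATF4 in turn, was at 27.0, 12.5 and 18.2 CPM in WT and at 54.5, 25.5 and 19.3 CPM in Cul5 cKO samples. Replicate 1 was the highest sample in both genotypes, and the groups overlapped because Cul5 cKO replicates 2 and 3 lay below WT replicate 1. Its log2 fold change was 0.77 ± 0.43 (edgeR, adjusted p = 0.349). It was 0.21 without Cul5 cKO replicate 1, 0.50 without WT replicate 2 and 1.19 without WT replicate 1. With the difference between replicate 1 and the others as a term, Trib3 passed the threshold in edgeR (adjusted p = 0.0226). That fit called 11 members and 7.17% of all genes higher, against 0.611% of all genes without the term. Chac1, which degrades glutathione, was lowly expressed, at 0.854, 0.865 and 1.27 CPM in WT and 1.09, 1.49 and 2.13 CPM in Cul5 cKO samples. Its difference of 0.75 ± 0.36 (edgeR, adjusted p = 0.287) came from few reads, with WT replicate 3 not far above its limit of 0.759 CPM. Ddit3, which encodes the stress factor CHOP, differed by less than its spread. It was at 12.1, 12.9 and 12.4 CPM in WT and 12.0, 13.6 and 12.8 CPM in Cul5 cKO samples, with a log2 fold change of 0.04 and a 95% interval of −0.21 to 0.29. Ddit3 overlaps Mars1 on the opposite strand, Mars1 carries 1690% of its counts, and since strand-specific counting is not given in the sources used here, reads of the shared stretch cannot be told apart. The 5 regulators had a median log2 fold change of 0.75, which is the value of Chac1 itself. Under a minimum of 10 counts in every sample, where Chac1 was not tested, the median was 0.59. Of the 5, edgeR called 1, against 0.611% of all genes higher.

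**Figure D2:**
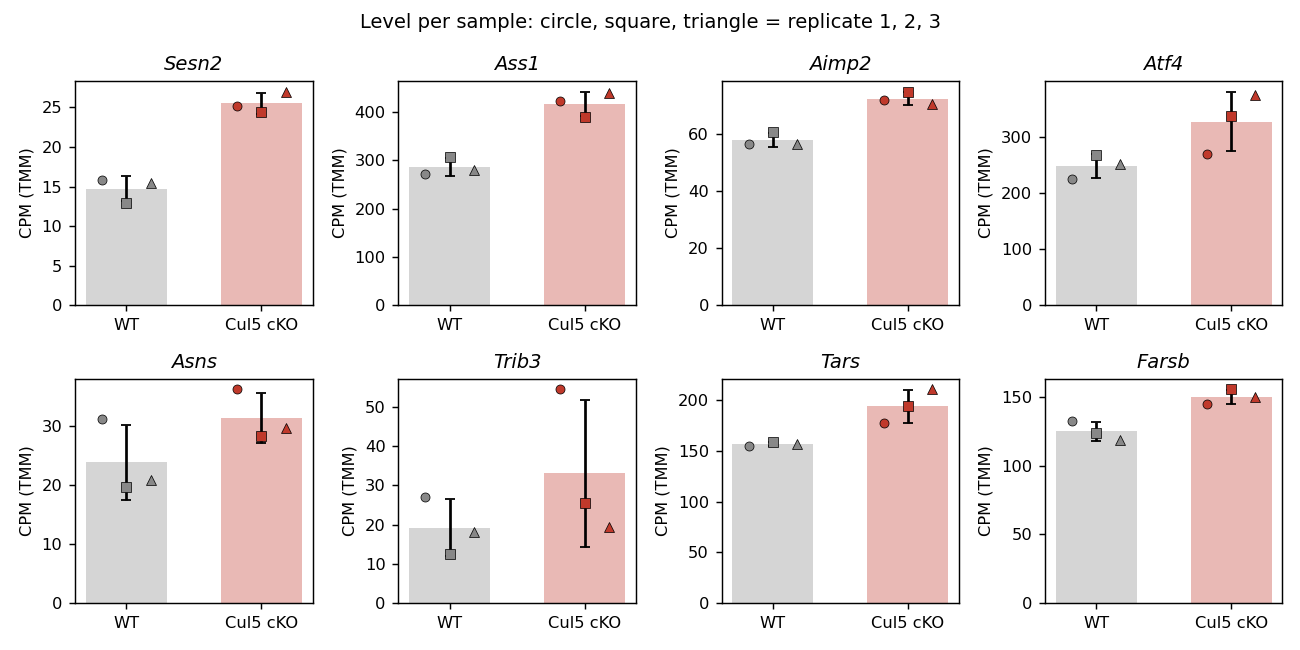
Level (CPM on TMM-scaled libraries, from 0) of 8 genes in each of the 6 samples; bars are means, error bars SD (n = 3), and circles, squares and triangles are replicates 1, 2 and 3. The Cul5 cKO points of Sesn2, Ass1, Aimp2, Atf4, Tars and Farsb all lie above the WT points, whereas those of Asns and Trib3 overlap them.

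All 7 enzymes of amino acid and one-carbon metabolism had higher means in Cul5 cKO cells. The median of their log2 fold changes was 0.26, and 1 passed the test, against 0.611% of all genes higher. Ass1 (ENSMUSG00000076441, chromosome 2, 31470207 to 31520672, plus strand) encodes argininosuccinate synthase, which makes arginine's precursor from citrulline and aspartate. It was at 270.5, 308 and 280 CPM in WT and at 423, 390 and 438 CPM in Cul5 cKO samples, so that the groups were separated by more than their ranges. The log2 fold change was 0.54 ± 0.07 (the quasi-likelihood test of edgeR, Benjamini-Hochberg adjusted p = 0.0246), or 1.46-fold with a 95% interval of 1.29 to 1.64, and 0.49 from replicates 2 and 3 alone (edgeR, adjusted p = 0.0293). The call was lost in edgeR without WT replicate 2 (adjusted p = 0.0771), WT replicate 3 (0.134), Cul5 cKO replicate 1 (0.0554), Cul5 cKO replicate 2 (0.0581) or Cul5 cKO replicate 3 (0.141), with a log2 fold change of 0.51 to 0.60 in those 5 fits, and was kept without WT replicate 1 (0.0405). A processed pseudogene that matches Ass1 over 1240 bases, Gm5424, carried 0.0616% of its counts.

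Asns makes asparagine and carries the response element shown above. It was at 31.2, 19.6 and 20.8 CPM in WT and at 36.2, 28.3 and 29.7 CPM in Cul5 cKO samples, where WT replicate 1 lay within the Cul5 cKO range. Over all 3 replicates the log2 fold change was 0.37 ± 0.19 (edgeR, adjusted p = 0.311), or 0.23 to 0.65 with 1 library left out. Replicates 2 and 3 alone, in which the groups did not overlap, gave 0.53 (edgeR, adjusted p = 0.0290). The serine pathway makes serine from a glycolytic intermediate through Phgdh, Psat1 and Psph. Psat1 had the largest difference of the 3, at 277, 275 and 262 CPM in WT and 306, 319 and 361 CPM in Cul5 cKO samples (log2 fold change 0.27 ± 0.08; edgeR, adjusted p = 0.117). Phgdh was at 558, 519 and 490 CPM in WT and 586, 579 and 608 CPM in Cul5 cKO samples (0.18 ± 0.06; edgeR, adjusted p = 0.181), while Psph overlapped, at 46.1, 38.1 and 41.8 CPM in WT and 45.5, 42.1 and 45.6 CPM in Cul5 cKO samples (0.08 ± 0.09). Psph is antisense to Cct6a, which carries 1474% of its counts and had a log2 fold change of 0.21. From TPM the value of Psph was below 0. Shmt2 and Mthfd2, which carry one-carbon units in mitochondria, had log2 fold changes of 0.26 ± 0.09 and 0.25 ± 0.15 (edgeR, adjusted p = 0.170 and 0.389), with the lowest Cul5 cKO sample being replicate 1 in both. From replicates 2 and 3 alone Mthfd2 was at 0.34 (edgeR, adjusted p = 0.0491), in a fit that called 4.38% of all genes higher. Shmt2 passed with the difference between replicate 1 and the others as a term (edgeR, adjusted p = 0.0492), where 7.17% were called higher.

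The cytosolic synthetases leaned higher by a small amount. On the count scale all 20 had a log2 fold change above 0, from 0.06 in Qars to 0.30 in Tars, with a median of 0.19, against 18 of 20 in the authors' log2 CPM and 16 of 20 in limma on log2(TPM + 1). None passed an adjusted p of 0.05 in edgeR's quasi-likelihood test, 1 (Tars) passed in DESeq2 and 3 (Farsb, Rars and Tars) passed in edgeR from replicates 2 and 3 alone, against 2.79% and 4.38% of all genes higher in those fits. At an unadjusted p under 0.05, 10 were higher, against 10.9% of all genes, and all 3 Cul5 cKO samples lay above all 3 WT samples in 10, against 14%. The summed level of the 20 was 3762, 4014 and 3825 CPM in WT and 4092, 4312 and 4646 CPM in Cul5 cKO samples, groups that did not overlap. Tars, the threonine enzyme, was at 155, 159 and 157 CPM in WT and at 178, 194 and 211 CPM in Cul5 cKO samples (0.30 ± 0.07; edgeR, adjusted p = 0.103, or 0.0338 from replicates 2 and 3 alone). Farsb, the beta chain of the phenylalanine enzyme, was at 132, 124 and 118 CPM in WT and 145, 155 and 150 CPM in Cul5 cKO samples (0.26 ± 0.07; edgeR, adjusted p = 0.109, or 0.0326 from replicates 2 and 3 alone). At the low end Qars, the glutamine enzyme, was at 208, 205 and 205 CPM against 215, 212 and 218 CPM, a log2 fold change of 0.06 with a 95% interval of −0.06 to 0.18. Among the others, Sars was at 0.22, Kars at 0.195, Farsa at 0.19, Dars at 0.14 and Eprs at 0.11 on the log2 fold change scale.

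Cul5 cKO replicate 3 was the highest of the 6 samples in 19 of the 20 cytosolic synthetases and in 29 of all 43 genes, against 19.8% of all genes tested, and it is also the sample with 48.0 CPM of B cell markers. The part of that sample's B cell RNA in the synthetase values was not tested. Without it the median of the 20 was 0.15, and in that fit all 20 remained above 0. The 8 synthetases of the multisynthetase complex had a median of 0.16, and the 12 outside it 0.22. The scaffold genes Aimp1 and Aimp2 had log2 fold changes of 0.16 ± 0.07 and 0.32 ± 0.06. Aimp2 was at 56.6, 61.0 and 56.7 CPM in WT and at 71.9, 75.0 and 70.7 CPM in Cul5 cKO samples, which did not overlap, with an adjusted p of 0.0708 in edgeR and 0.0264 in DESeq2. Aimp2 is antisense to Eif2ak1, which carries 115% of its counts and had a log2 fold change of −0.06.

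**Figure D3:**
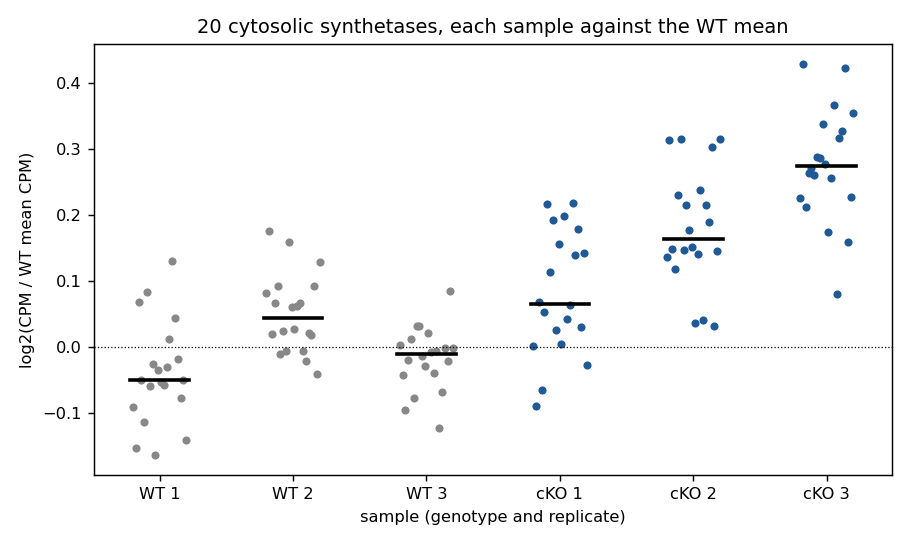
Level of each of the 20 cytosolic synthetases in each sample, as log2 of CPM over the WT mean of that gene (vertical axis; each dot is 1 gene, black bars are medians of the 20). The medians are −0.05, 0.04 and −0.01 in the WT samples and 0.07, 0.16 and 0.27 in the Cul5 cKO samples, and the dots of every Cul5 cKO sample overlap those of WT replicate 2.

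The 9 mitochondrial synthetases, which charge the tRNAs of the mitochondrial genome, had smaller differences. Of these, 8 were above 0, with a median of 0.14, and 0 passed the adjusted threshold in edgeR or in DESeq2. At an unadjusted p under 0.05 in edgeR, 1 of the 9 (Iars2) was higher, near the share of 10.9% of all genes. Iars2 was at 158, 162 and 154 CPM in WT and at 182.5, 176 and 177 CPM in Cul5 cKO samples, which did not overlap (0.18 ± 0.06, with an edgeR adjusted p of 0.149). However, Iars2 is antisense to Rab3gap2, which carries 56.5% of its counts and had a log2 fold change of 0.32 (edgeR, adjusted p = 0.104). Yars2 was at 0.20, Ears2 at 0.14 and Sars2 at 0.13, with no test passed. Lars2 had the largest difference, 0.26 ± 0.15, and a wide spread, from 80.5 to 120 CPM in WT. Aars2 was the only member with a lower mean, at 25.5, 27.7 and 26.6 CPM in WT and 24.5, 22.6 and 26.5 CPM in Cul5 cKO samples (−0.12, 95% interval −0.33 to 0.10). A further 8 mitochondrial synthetases outside the list had a median of −0.01 with 2 above 0 and 0 called (edgeR, DESeq2). In edgeR 1 of them was lower at an unadjusted p under 0.05, near the share of 10.4% of all genes.

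The levels of these genes spanned a wide range. On TPM, which scales for transcript length, Phgdh was the most abundant at 430 ± 25.1 TPM (WT mean ± SD, n = 3), above 97.8% of all genes tested, followed by Shmt2 at 348 ± 33.2 and Ass1 at 264.5 ± 27.0 TPM. The median of the cytosolic synthetases was 105 TPM, that of the mitochondrial synthetases 26.0 TPM, and that of all genes tested 18.3 TPM. Among cytosolic synthetases Vars was the highest at 258 ± 43.7 TPM and Cars the lowest at 46.8 ± 8.33 TPM, and of all members Chac1 was the lowest at 0.945 ± 0.19 TPM. On TPM the sums of the cytosolic synthetases overlapped between genotypes, at 2254, 2520 and 2661 TPM in WT and 2479, 2568 and 2701 TPM in Cul5 cKO samples. WT replicate 3, the least deeply sequenced library, had the highest TPM of the 6 samples in 10 of the 43 members and in 29.8% of all genes tested, although it had the highest CPM in 0 of the 43. Qars is the clearest case, at 181, 206 and 359 TPM in the WT samples and 197, 188 and 189 TPM in Cul5 cKO samples, while its CPM hardly differed between samples. Tars was at 108, 118 and 159 TPM in WT and 118, 122 and 136 TPM in Cul5 cKO samples. In Tars the largest transcript held 71.1% of counts in WT replicate 3 and 85.2% to 88.5% in the other 5.

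**Figure D4:**
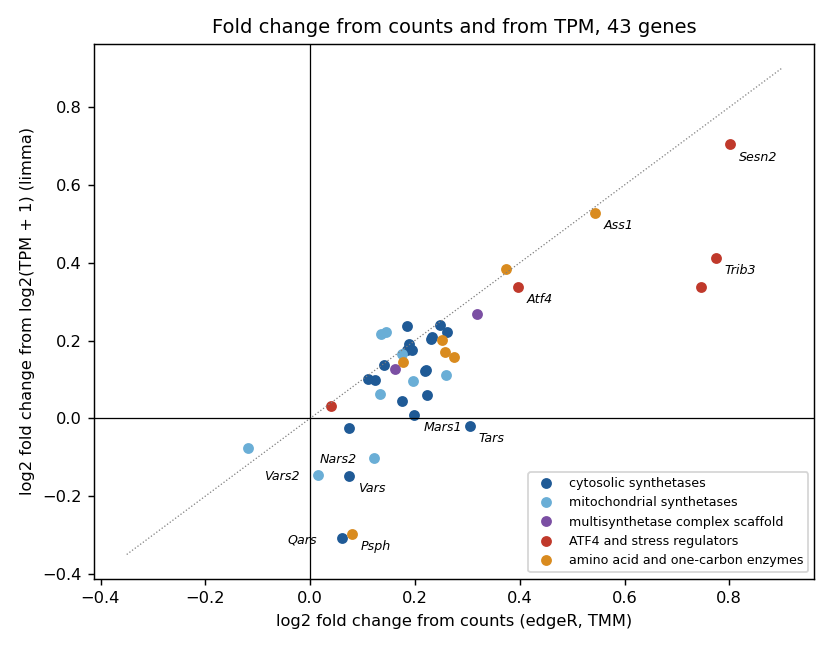
Log2 fold change of the 43 genes from counts (edgeR, horizontal axis) and from log2(TPM + 1) (limma, vertical axis), coloured by group; the dotted line marks equal values. Sesn2 and Ass1 lie close to that line, while Qars, Vars, Psph, Tars, Nars2, Vars2 and Lars, of which all had values above 0 from counts, fall below 0 from TPM.

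The wider pathway was given by 7 lists of genes outside the 43. Of 25 tested ATF4 partners and targets 19 were above 0, with a median of 0.23. Of them edgeR called 1, against 0.611% of all genes higher, and DESeq2 called 3, against 2.79%. In edgeR from replicates 2 and 3 alone 4 were called, against 4.38%. All calls in these fits were higher. The gene called in the first of these was Eif4ebp1, an inhibitor of cap-dependent translation, at 42.2, 38.9 and 38.7 CPM in WT and 53.8, 59.3 and 61.8 CPM in Cul5 cKO samples, which did not overlap (0.54 ± 0.08; edgeR, adjusted p = 0.0306, or 0.0359 to 0.161 with 1 library left out). The stress factor Atf3 and the amino acid transporter subunit Slc3a2, chosen here after their values were seen, had log2 fold changes of 2.04 ± 0.60 and 0.39 (edgeR, adjusted p = 0.131 and 0.0694). In DESeq2 their adjusted p was 0.0782 and 0.00264, and in edgeR from replicates 2 and 3 alone 0.0119 and 0.0293. Atf3 was at 2.18, 7.70 and 5.57 CPM in WT and 7.90, 23.5 and 31.0 CPM in Cul5 cKO samples, so that the lowest Cul5 cKO sample, replicate 1, was nearly level with WT replicate 2.

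The next list held 10 genes of the eIF2α step upstream of ATF4, namely kinases, phosphatase subunits, Gcn1, Impact and Eif2s1, which encodes eIF2α itself. Of these, 0 were called (edgeR and DESeq2), and the median was 0.06. At an unadjusted p under 0.05, 2 were higher (Eif2ak4 and Eif2s1) and 1 lower (Eif2ak3), where 21.3% of all genes passed in either direction. Eif2ak4, the amino acid sensor GCN2, was at 34.6, 37.2 and 36.4 CPM in WT and at 43.8, 44.5 and 49.4 CPM in Cul5 cKO samples (0.35 ± 0.08; edgeR, adjusted p = 0.0871). Eif2ak3, the endoplasmic reticulum sensor PERK, chosen here after its values were seen, was at 32.1, 35.3 and 32.4 CPM in WT and 27.8, 27.4 and 27.2 CPM in Cul5 cKO samples (−0.28 ± 0.08; edgeR, adjusted p = 0.113). The genotypes did not overlap in either kinase, in opposite directions, and neither passed the adjusted test.

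The 12 genes of the ATF6 and XBP1 arms of the unfolded protein response include chaperones and Xbp1 itself. They had a median of 0.26, with 11 above 0 and 7 higher at an unadjusted p under 0.05 (10.9% of all genes). Calls were 0 in edgeR, 2 in DESeq2 (2.79% of all genes higher), and 7 in edgeR from replicates 2 and 3 alone, against 4.38% of genes higher in that fit. Sdf2l1 had the lowest p (0.49 ± 0.10, with an edgeR adjusted p of 0.0687, or 0.016 from replicates 2 and 3 alone). The same shares of all genes apply to the next 3 lists. They are 10.9% higher at an unadjusted p under 0.05, 2.79% called higher in DESeq2 and 4.38% called higher in edgeR from replicates 2 and 3 alone. The 10 other folate and one-carbon enzymes had a median of 0.22 with 9 above 0. Calls among them were 0 in edgeR, 1 in DESeq2 and 2 in edgeR from replicates 2 and 3 alone, with 2 at an unadjusted p under 0.05. Mtr, methionine synthase, had the lowest p (0.37 ± 0.09, with an edgeR adjusted p of 0.0937, or 0.0462 from replicates 2 and 3 alone). Of 3 tested urea cycle and arginine enzymes 3 were above 0, with a median of 0.27. Calls among them were 0 in edgeR, 1 in DESeq2 and 0 in edgeR from replicates 2 and 3 alone, with 2 at an unadjusted p under 0.05. Odc1, which makes polyamines from ornithine, was at 0.27 ± 0.06 (edgeR, adjusted p = 0.0856). The 9 tRNA modification and elongation factors had a median of 0.14 with 7 above 0. Calls among them were 0 in edgeR, 1 in DESeq2 and 2 in edgeR from replicates 2 and 3 alone, with 4 at an unadjusted p under 0.05. Their lowest p was that of Eef1e1, a further component of the multisynthetase complex. It was at 48.1, 52.4 and 51.9 CPM in WT and 57.9, 74.6 and 81.2 CPM in Cul5 cKO samples. Its log2 fold change was 0.49 ± 0.13 (edgeR, adjusted p = 0.109, or 0.0156 from replicates 2 and 3 alone).

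One overlap bears on Aars, the alanine enzyme. Exosc6, a subunit of the RNA exosome on the same strand, held 2, 0 and 0 counts in WT and 54, 179 and 192 counts in Cul5 cKO samples, 1.47% of the counts of Aars. Aars alone had a log2 fold change of 0.12 ± 0.08 (edgeR, adjusted p = 0.409), and the log2 ratio of means of the 2 genes summed was 0.16.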

How the data were processed

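RNA was sequenced on a BGIseq500 with reads of 50 bp. The authors deposited kallisto 0.46.2 estimated counts and TPM for each of 119414 transcripts in each sample, and a gene-level table of log2 CPM that they normalised with edgeR 3.34.0. The fold change and p columns of that table were not used. Estimated counts were summed to genes with GENCODE vM21 (GRCm38; 97.68% of transcripts matched), rounded, filtered with filterByExpr defaults, TMM-scaled and tested with the quasi-likelihood test of edgeR 4.0.16, with p adjusted by Benjamini-Hochberg over all 12925 genes. The common biological coefficient of variation was 16.1%. CPM values are on TMM-scaled libraries, and errors of log2 fold changes are SE. All 43 members were named, and for the other lists the genes called or, if none, the gene with the lowest p. A gene and a sequence that these rules would name are not reported here. Members and lists were chosen with earlier results of these data known. Alternatives were DESeq2 1.42.0, limma 3.58.1 on log2(TPM + 1), log2(TPM + 0.1) and the deposited log2 CPM, other scalings and filters, and leaving out each library. An exact permutation test of 3 against 3 cannot go below p = 0.1, so none was used. Promoter sequences are from RefSeq.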

Additional observations from a re-analysis of the deposited data

How the results depend on the processing

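Against 2 members and 133 genes called in edgeR, DESeq2 called 5 members and 693 genes, counts scaled from TPM gave 1 and 61, limma on log2(TPM + 1) 0 and 27, limma on log2(TPM + 0.1) 0 and 30, and limma on the authors' log2 CPM 0 and 41. The difference between replicate 1 and the others as a term called 11 members and 1688 genes (13.1%). Replicates 2 and 3 alone called 8 and 1153 (8.83%). Thinning to WT replicate 3 gave 1 member and 130 genes (1.25%), and no filter beyond 1 count called 2 members and 228 genes (1.02%). With library size alone the calls were 72 higher and 77 lower, against 79 and 54. Leaving out 1 library at a time gave 0 to 2 members and 2 to 316 genes, the lowest without WT replicate 2 or WT replicate 3 (2 genes each) and Cul5 cKO replicate 3 (3 genes), followed by Cul5 cKO replicate 2 (45 genes), the highest without WT replicate 1. At an unadjusted p under 0.05 in edgeR stood 18 members, where 21.3% of all genes passed. The count was 11 with counts scaled from TPM, and 8 and 7 in limma with TPM + 1 and TPM + 0.1 on the log2 scale. With 1 library left out it was 9 to 23 (9 without Cul5 cKO replicate 3, 11 without WT replicate 3). In these other fits the share of all genes at this threshold was not computed. Their counts therefore have no background to be read against. The cause of these shifts was not tested.

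Same-numbered samples correlated at 0.37, 0.21 and 0.02 in their deviations from the group means, and not every sample correlated best with its own number, so the numbers were not taken as pairs. With the replicate block, 6 members and 848 genes (6.56%) were called.

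The median of the ATF4 and stress regulators, 0.75, was 0.34 and 0.43 in limma with those same TPM scales, 0.45 on the authors' log2 CPM, 0.48 after thinning, and 0.46 to 0.78 with 1 library left out. The median of the mitochondrial synthetases, 0.14, was 0.026 after thinning. The medians of the cytosolic synthetases and of the enzymes kept their direction in all 19 alternatives.

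Of 815 values of single members over these alternatives, 743 kept direction and side of the threshold, 22 passed it newly, 18 no longer passed it and 32 changed sign. With counts scaled from TPM, Qars was at −0.31, Vars at −0.10, Nars2 at −0.053, Vars2 at −0.0903 and Psph at −0.27. With limma on log2(TPM + 1) and on log2(TPM + 0.1), in that order, Lars was at −0.024 and −0.024, Qars at −0.31 and −0.31, Tars at −0.020 and −0.020, Vars at −0.147 and −0.148, Nars2 at −0.10 and −0.11, Vars2 at −0.145 and −0.15, and Psph at −0.296 and −0.30. On the authors' log2 CPM, Qars was at −0.34, Vars at −0.13, Nars2 at −0.086, Vars2 at −0.13 and Psph at −0.055. After thinning, Sars2 was at −0.024, Vars2 at −0.078 and Psph at −0.063. With library size alone, Vars2 was at −0.028 and Ddit3 at −0.0029. From replicates 2 and 3 alone Vars2 was at −0.018. With 1 library left out, Vars2 ranged from −0.0021 (without Cul5 cKO replicate 1) to 0.041 and Ddit3 from −0.0011 (without Cul5 cKO replicate 2) to 0.087. Cytosolic synthetases were above 0 in 20 of 20 in each count-based fit, in 18 with counts scaled from TPM or the authors' values and in 16 with limma on TPM. Chac1 was not tested under a minimum of 10 counts in every sample or after thinning.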

Other observations

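In the gene-level log2 CPM deposited by the authors, Nars, the asparagine enzyme, stood at −3.21 in WT replicate 3 and at 6.38 to 6.75 in the other 5 samples, a difference of group means of 3.37. Summed over its transcripts, Nars was at 215, 230 and 214 CPM in WT and at 226.5, 259 and 283.5 CPM in Cul5 cKO samples, a log2 fold change of 0.22. The transcript ENSMUST00000025483, which took 33.2% to 36.9% of its counts in the other 5 samples, held almost none in WT replicate 3, where ENSMUST00000237369 took 21.7% against 6.41% to 13.4% elsewhere. Qars stood at 7.59 in the authors' table in WT replicate 3 and at 6.44 to 6.66 in the others, while its summed counts gave 205 CPM there and 205 to 218 CPM in the others.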
